A study of Mus musculus with 4 samples.

Results

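Contractile smooth muscle cells of the mouse ovary were taken from single-cell RNA libraries as the cells with at least 1000 UMIs, at most 20% mitochondrial UMIs, at least 3 of the 5 contractile genes Myh11, Actg2, Cnn1, Lmod1 and Des with 1 or more UMI, and 0 UMIs of Rgs5, Pecam1, Ptprc and Fshr. The members were thus chosen by their own UMI counts of these 9 genes. UMIs are barcodes that let every captured transcript be counted 1 time. The rule took 2556 of the 30523 cells that passed the first 2 filters (33639 cells were deposited), and these 2556 cells are called members. The ovaries came from prepubertal mice that entered the study at postnatal day 25. The control group received PBS/saline, the doxorubicin group 2 weekly doses of doxorubicin at 3 mg/kg, the doxorubicin+AMH group the same doses together with AMH (anti-Müllerian hormone, the recombinant human protein) at 0.75 mg/kg, and the AMH group AMH at 0.75 mg/kg alone. Ovaries were collected 4 hours after the last doxorubicin dose, and 1 ovary from each of 5 animals was pooled into 1 library per group. Strain and route are not given in the sources used here. With 1 pool per group the spread between animals was not measured, so every comparison is between 4 libraries and not between treatments, and no test could be made.

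Smooth muscle contracts when calcium, bound to calmodulin, activates myosin light chain kinase, and phosphorylated myosin then pulls on actin filaments. Smooth muscle myosin heavy chain (Myh11), smooth muscle actins (Acta2, Actg2), calponin (Cnn1) and leiomodin (Lmod1) build this apparatus, and desmin (Des) forms the intermediate filaments that tie it together. In the ovary, smooth muscle lies in vessel walls, in the theca externa around follicles, in the stroma and in the ligaments that hold the organ, and it is known to take part in follicle rupture. Doxorubicin is an anthracycline that poisons topoisomerase II and breaks DNA. AMH is a hormone of the TGF-β family made by granulosa cells, and it signals through its own receptor (Amhr2) and the BMP type SMAD proteins.

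Many smooth muscle genes are switched on by serum response factor at the CArG box, so the 250 bases before the annotated start of each gene were searched on both strands for this motif in the RefSeq promoter table (GRCm38.p6). The box occurred in 1.467% of all 32851 windows and at 1.624% of the 27025 genes. Among the 20 genes with the highest level in members against all other cells, chosen below, 18 had a promoter in the table and 3 held the box (Asb2, Fbxl22 and Myl9). Of 27 matched genes of a contractile gene list 7 held it (Myl9, Myl6, Vcl, Ldb3, Fhl1, Fhl2 and Dmd). None of the 3 matched genes of the rule held it in this window. The sequences are shown because these promoters carry the letters of the smooth muscle motif; each runs 5′ to 3′ on the gene's strand, with the CArG box in capitals, and a match is a description of these letters and not evidence of binding. Starts are those of the RefSeq table. Asb2 (a ubiquitin ligase subunit that targets filamins) has the box 64 bases before its start, in the stretch chr12:103356006-103356115 (minus strand). Fbxl22 (an F-box protein of muscle) has it 222 bases before its start, in chr9:66514756-66514843 (minus strand). Myl9 (the regulatory myosin light chain) has it 161 bases before its start, in chr2:156775253-156775362 (plus strand). Myl6 (the essential light chain) has it 50 bases before a start that lies inside the gene as GENCODE vM21 draws it (chr10:128490860-128494145), in chr10:128493010-128493109 (minus strand). Vcl (vinculin, of the adhesion plaques that anchor actin) has it 227 bases before its start, in chr14:20929148-20929230 (plus strand). Dmd (dystrophin) has it 98 bases before its start, in chrX:82948722-82948831 (plus strand).
Asb2: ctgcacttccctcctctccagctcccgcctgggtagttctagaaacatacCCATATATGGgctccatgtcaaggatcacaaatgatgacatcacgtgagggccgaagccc
Fbxl22: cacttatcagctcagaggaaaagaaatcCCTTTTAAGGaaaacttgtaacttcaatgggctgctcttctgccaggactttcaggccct
Myl9: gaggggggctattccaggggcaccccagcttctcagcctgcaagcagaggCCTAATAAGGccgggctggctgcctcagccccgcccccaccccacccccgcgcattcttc
Myl6: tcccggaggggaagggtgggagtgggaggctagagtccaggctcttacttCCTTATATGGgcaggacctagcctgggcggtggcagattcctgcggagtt
Vcl: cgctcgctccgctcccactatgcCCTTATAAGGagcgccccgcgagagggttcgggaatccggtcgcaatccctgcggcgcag
Dmd: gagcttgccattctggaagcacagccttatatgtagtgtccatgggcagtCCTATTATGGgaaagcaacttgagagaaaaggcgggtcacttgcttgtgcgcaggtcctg

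Levels below are CPM, the UMIs of a gene summed over a set of cells and scaled to a total of 1000000 UMIs in that set. Wherever 4 values stand together, the control library comes first, then doxorubicin, doxorubicin+AMH and last AMH. Myh11 (chr16:14194535-14291372, minus strand, mm10) stood at 1803, 1404, 1401 and 1560 CPM in members and at 10.1 to 14.8 CPM in stromal cells (4816 cells with UMIs of Pdgfra and Lum and at most 1 of the 5 genes). Actg2 (chr6:83512905-83536265, minus strand) stood at 800, 706, 748 and 635 CPM, Cnn1 (chr9:22099216-22109630, plus strand) at 635, 412, 484 and 576 CPM, and Lmod1 (chr1:135324807-135368065, plus strand) at 293, 297, 264 and 246 CPM. These 4 genes were part of the rule, and their high levels follow from it. Des (chr1:75360329-75368579, plus strand), the fifth gene, stood at 359, 103, 162 and 249 CPM and was the most uneven of the 5 across libraries.

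Genes outside the rule were used to check the name. Acta2 (chr19:34241090-34255590, minus strand) stood at 6157, 6488, 6943 and 5623 CPM in members and at 343, 272, 400 and 340 CPM in all other kept cells. Tagln (transgelin, chr9:45929619-45936058, minus strand) stood at 3869, 3822, 4109 and 3456 CPM against 207, 160, 233 and 205 CPM. Ednrb (the endothelin receptor type B, chr14:103814625-103844402, minus strand), named as a marker of these cells, stood at 143, 186, 133 and 101 CPM in members, at 2.09 to 3.47 CPM in stromal cells and at 2.94 to 18.6 CPM in leukocytes (536 cells with 2 or more Ptprc UMIs and 0 of Pecam1). In every library the members were above the stromal cells and the leukocytes for all 3 genes. After each cell was thinned to 2000 UMIs, 22.6% of members had an Ednrb UMI (50.4% unthinned) and 96.5% an Acta2 UMI (99.4% unthinned). Leukocytes, which should lack both, gave 2.3% (5.0% unthinned) and 7.8% (28.7% unthinned) as background from free RNA. Median depths by library were 11753, 11566, 11564 and 11040 UMIs in members and 9069, 9440, 8736 and 10113 UMIs in leukocytes.

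Mural cells, the contractile cells of vessels (262 cells with 2 or more Rgs5 UMIs and 1 or more Notch3 UMI), also carried Myh11, at 1457, 946, 803 and 909 CPM. Their Actg2 stood at 143, 19.4, 118 and 330 CPM, below the members, which were chosen on that gene. Notch3, a receptor of vascular smooth muscle and pericytes, stood at 9.18, 14.4, 9.08 and 7.41 CPM in members and at 548, 599, 323 and 373 CPM in the mural cells, which were chosen with it. Markers of other cells were present in members at unequal levels. The summed endothelial list stood at 34.66 to 37.71 CPM and the leukocyte list at 13.84 to 16.92 CPM. The granulosa list stood at 255.1, 314.1, 352.3 and 378.9 CPM in members, at 271.1, 737.7, 421.1 and 685.0 CPM in leukocytes and at 1719, 1854, 2634 and 2238 CPM in all other kept cells. The theca and steroid list stood at 826.2, 303.2, 183.8 and 309.5 CPM in members and 736.9, 1049, 272.6 and 435.4 CPM in leukocytes, and the epithelial list at 95.66, 14.51, 7.288 and 119.7 CPM in members. Members with 2 or more UMIs of theca, epithelial or granulosa markers numbered 665, 427, 502 and 607 of the 771, 491, 603 and 691. The list of fibroblast and stroma genes was high in members, at 1589 to 1816 CPM.

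**Figure D1:**
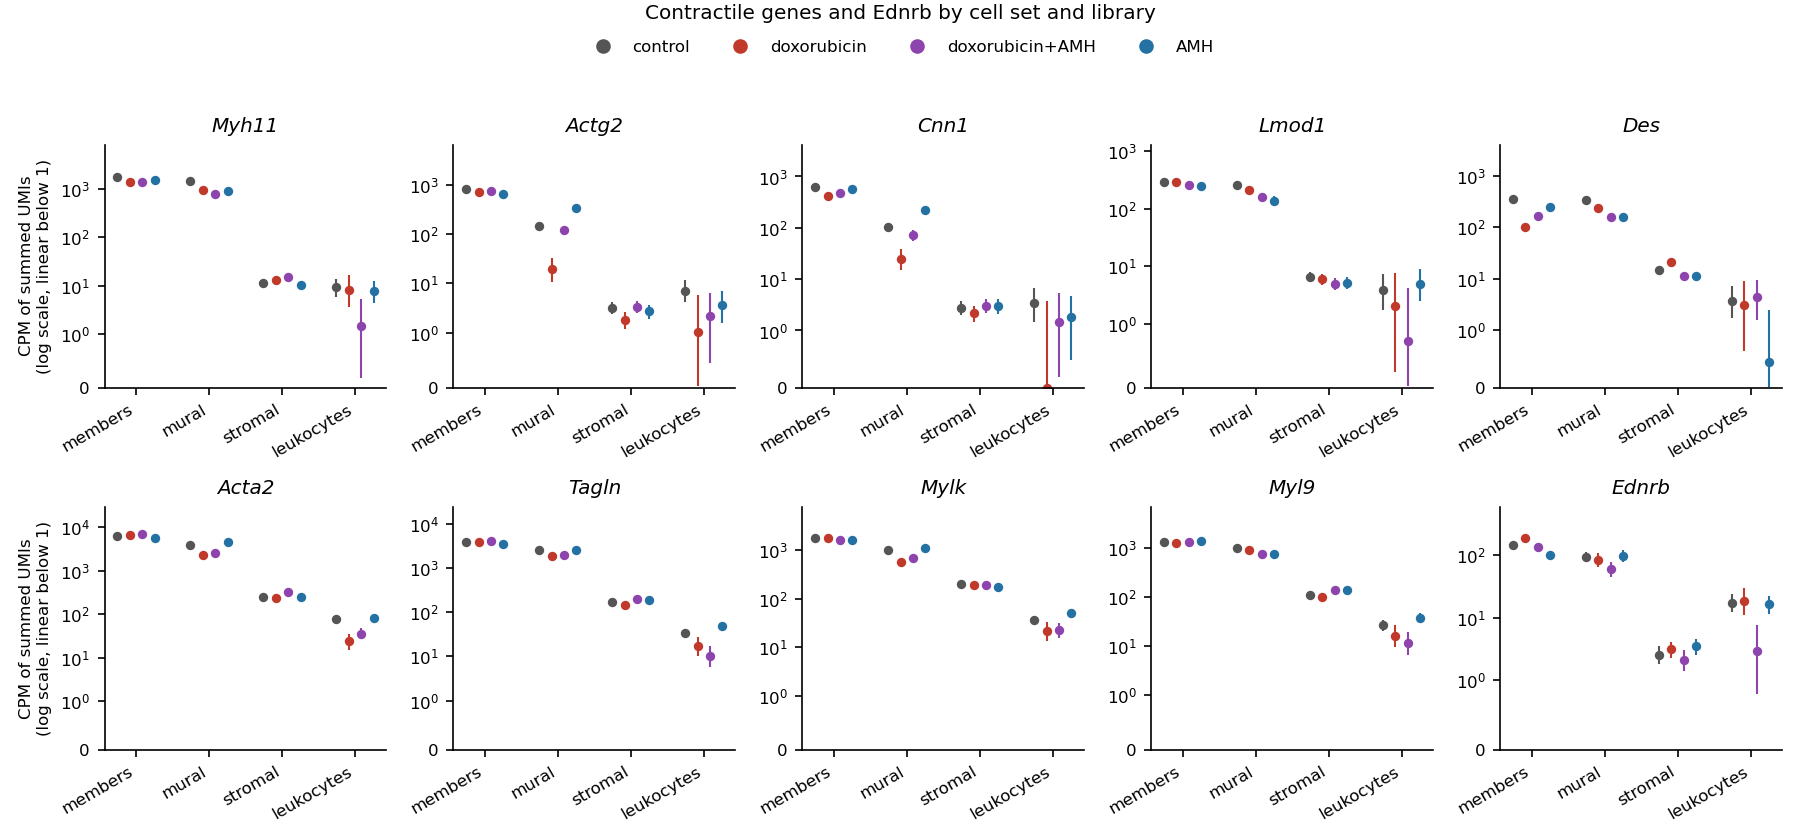
Levels of 10 contractile and marker genes by cell set; each point is 1 library, the vertical axis is CPM on a log scale (linear below 1) and lines are 95% exact Poisson intervals, which cover counting error only. Members and mural cells lie high for Myh11, stromal cells and leukocytes lie low, and Ednrb, which the rule did not use, lies at 101 to 186 CPM in members and 59.0 to 97.7 CPM in mural cells; Myh11, Actg2, Cnn1, Lmod1 and Des chose the members.

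Cells just inside and just outside the rule differed by degree. Members with exactly 3 of the 5 genes numbered 198, 168, 171 and 188, and cells with exactly 2 numbered 305, 241, 255 and 292. Acta2 stood at 2636, 2865, 2777 and 2336 CPM with 3 genes, at 755, 806, 1344 and 956 CPM with 2 genes, and at 7878, 9577, 10857 and 7018 CPM with all 5. A cell near the threshold therefore carried less of a gene that the rule did not use. The zero-UMI condition removed 255, 139, 144 and 235 cells with Pecam1 (an endothelial gene), 136, 73, 62 and 93 with Rgs5, 92, 53, 84 and 139 with Fshr (a granulosa gene), and 14, 6, 4 and 30 with Ptprc (a leukocyte gene).

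Members numbered 771, 491, 603 and 691. Their share of kept cells was 8.98% (95% Clopper-Pearson interval 8.38 to 9.60), 7.66% (7.02 to 8.34), 8.64% (7.99 to 9.32) and 8.09% (7.52 to 8.68). The control and doxorubicin intervals do not overlap, and those of all other pairs do. These intervals cover counting error only. With the rule applied to cells thinned to 2000 UMIs the shares were 6.40%, 3.94%, 5.40% and 5.28%. The libraries held 7141 to 9478 deposited cells and 138647495 to 178279122 UMIs, and pairs of libraries shared 11 to 24 cell barcodes, none of them between members.

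The 20 genes with the highest level in members relative to all other kept cells, ranked by the lowest of the 4 libraries, describe the cells by their place in this ranking and were given no test. They included Tnnt2, Tagln, Acta2, Tpm2, Myl9 and Mylk of the contractile filaments, Synpo2 (an actin-bundling protein), Asb2 and Fbxl22, Trdn (triadin, of the calcium release complex), Kcnmb1 (the β subunit of the calcium-activated potassium channel), Ednrb, Pcp4 (a calmodulin regulator) and Syt1. The others were Optc, Rasd2, Gm20754, Tspan2, Mustn1 and Slc22a3. Tnnt2, a troponin known from heart muscle, ranked first, at 78.2, 67.7, 78.5 and 88.9 CPM in members and 3.24, 2.72, 3.53 and 3.05 CPM in other cells. Fbxl22 stood at 340, 324, 346 and 309 CPM and varied little between libraries. Asb2 stood at 49.2, 27.2, 24.9 and 39.1 CPM and was lower in both libraries with doxorubicin. Some of these genes overlap another gene on the same strand in the annotation (Synpo2, Syt1, Trdn, Gm20754 and Pcp4), so their UMIs may be shared with it.

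Members were not uniform. The Fano factor (variance over mean of UMIs per member, thinned to 2000 UMIs) was highest for Malat1 (15.6), Tagln (7.81), Acta2 (7.15), Crip1 (7.12), Tmsb4x (5.72), Dcn (5.30), Fos (4.92), Ovgp1 (4.83), Gm42418 (4.82), Pcp4 (4.67), Des (4.65) and C3 (4.52), as medians over the libraries. After these values were seen, members were divided by Des and by 3 genes that went with it, Rspo3 (a Wnt agonist), Pgr (the progesterone receptor) and Npnt (nephronectin). Cells with 1 or more UMI of at least 3 of the 4 genes are called Des/Rspo3-high members, and cells with at most 1 gene Des/Rspo3-low members. The high set held 193, 29, 56 and 196 cells and the low set 510, 430, 499 and 447. A further 68, 32, 48 and 48 cells had exactly 2 genes and lay at the dividing line, so the sets are ranges and not types. Des at 1115, 754, 1330 and 668 CPM in the high set and 16.6 to 25.6 CPM in the low set follows from the division.

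Genes outside the division also differed between the sets, with values given as a description. Esr1 (the estrogen receptor α, chr10:4611593-5005614, plus strand) stood at 790, 257, 435 and 761 CPM in the high set and 52.4, 47.1, 41.6 and 64.1 CPM in the low set. Postn (periostin, a matrix protein) stood at 346, 220, 201 and 314 CPM against 15.4, 4.98, 9.72 and 11.0 CPM. Trdn (chr10:33080554-33476709, plus strand) stood at 159, 84.7, 58.2 and 171 CPM against 1.76, 0, 0.259 and 0.161 CPM. These 3 genes were higher in the high set in all 4 libraries. Mybpc1 (a myosin binding protein of skeletal muscle) and the lincRNA Gm20754 (chr3:73066316-73594830, plus strand) went the same way, with 33.9 to 163 CPM and 89.9 to 153 CPM in the high set and at most 1.32 and 0.807 CPM in the low set. Ryr3, a calcium release channel, stood at 120, 96.4, 148 and 99.2 CPM against 7.61, 4.65, 2.46 and 4.2 CPM.

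The low set carried other genes. Akr1cl (an aldo-keto reductase) stood at 1300, 1247, 1069 and 1154 CPM in the low set and 274, 396, 289 and 374 CPM in the high set. Kcnab1 (a potassium channel subunit) stood at 758, 659, 548 and 503 CPM against 110, 301, 98.2 and 97.3 CPM. Mfap5, of elastic microfibrils, stood at 362, 347, 320 and 246 CPM against 62.2, 143, 66.7 and 52.6 CPM. Tcf21, a transcription factor of gonadal stroma, stood at 163, 190, 154 and 118 CPM against 42.0, 186, 66.7 and 30.6 CPM. Ednrb stood at 184, 191, 138 and 142 CPM against 58.0, 195, 77.6 and 24.7 CPM. For Ednrb and Tcf21 the 29 high cells of the doxorubicin library were at the level of the low set, while in the other 3 libraries the sets lay apart. Contractile genes were present in both sets: Lmod1 stood at 286 to 432 CPM in the high set and 226 to 290 CPM in the low set, and Acta2 at 6277 to 9730 CPM and 5224 to 6529 CPM.

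**Figure D2:**
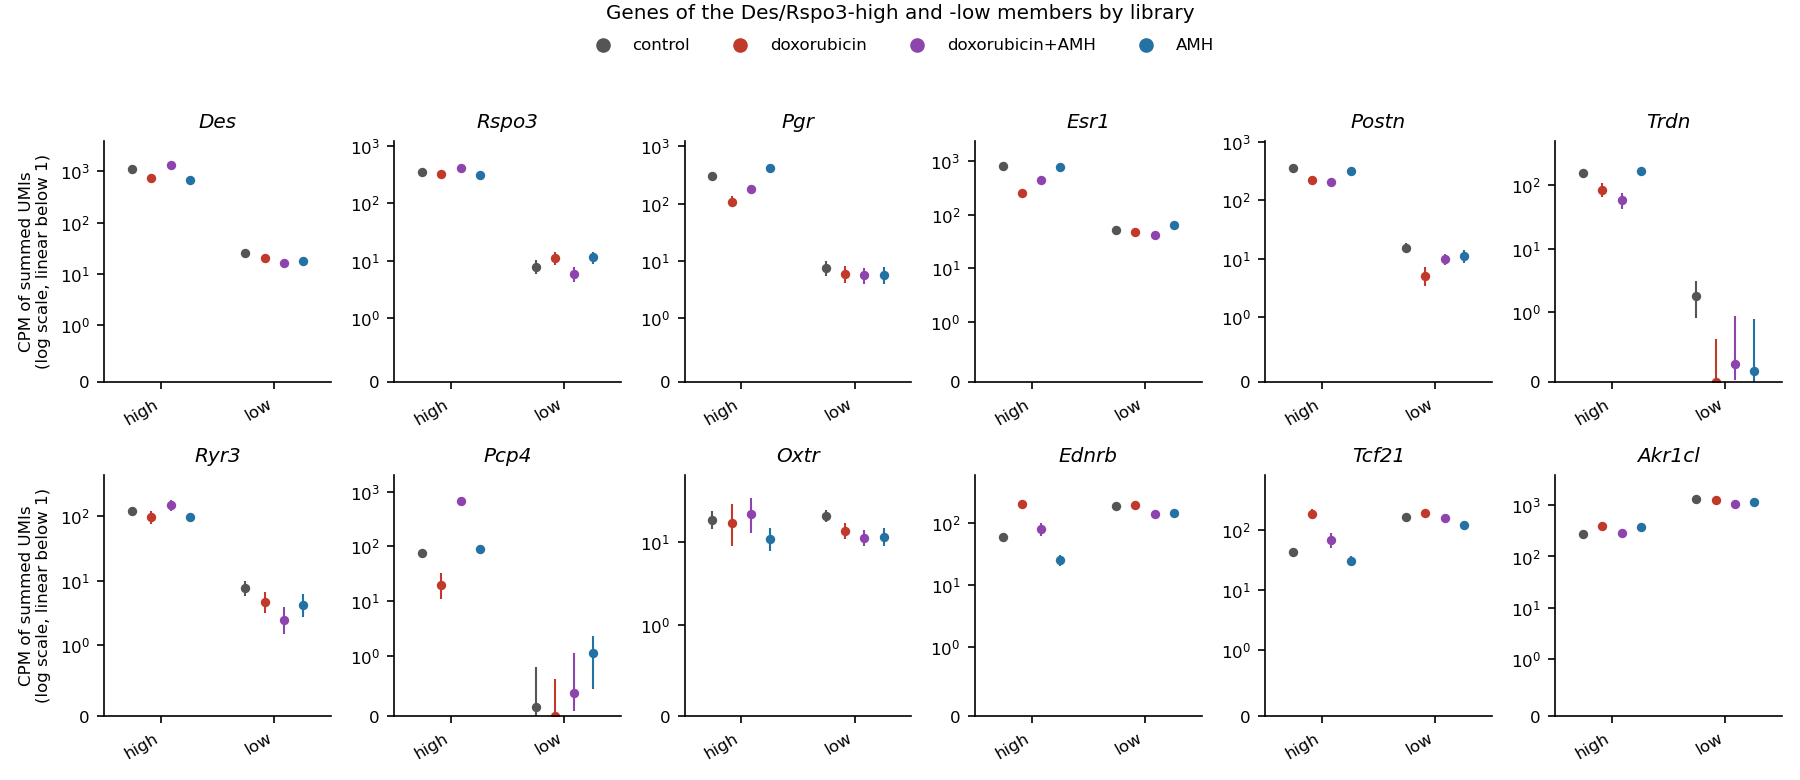
Levels of 12 genes in Des/Rspo3-high and Des/Rspo3-low members of each library, in CPM on a log scale with 95% exact Poisson intervals. Trdn, Ryr3 and Postn lie higher in the high set in all 4 libraries. Pcp4 reaches 684 CPM in the high set of the doxorubicin+AMH library. The pooled Ednrb and Tcf21 of the doxorubicin high set (195 and 186 CPM) lie at the level of the low set.

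The high set was the smaller share of members in both libraries with doxorubicin. It made up 25.0% of control members (95% Clopper-Pearson interval 22.0 to 28.2), 5.91% of doxorubicin members (3.99 to 8.37), 9.29% of doxorubicin+AMH members (7.09 to 11.9) and 28.4% of AMH members (25.0 to 31.9). As a share of kept cells it was 2.25%, 0.453%, 0.802% and 2.29%, whereas the low set was 5.94%, 6.71%, 7.15% and 5.23%. A count of members with any UMI of Trdn, Gm20754 or Mybpc1, which are outside the division but were found in these cells, gave 23.7%, 4.07%, 8.29% and 28.9%. Members thinned to 2000 UMIs with 2 or more of the 4 genes made up 17.4%, 3.68%, 7.97% and 22.6%. The order of the 4 libraries was the same under each of these countings. Pgr stood at 302, 108, 177 and 418 CPM and Npnt at 315, 111, 130 and 296 CPM within the high set, so fewer such cells and lower levels of the genes that define them cannot be told apart. Median depth was 13233, 15919, 10918.5 and 13049 UMIs in the high set and 10087.5, 10678, 11564 and 9408 UMIs in the low set.

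Another tissue element went with the high set. Epithelial cells with 2 or more UMIs of Ovgp1 or of Foxj1, genes known from secretory and ciliated cells of the oviduct, numbered 156, 5, 23 and 175. All epithelial cells (2 or more UMIs each of Epcam and Krt18) numbered 227, 64, 53 and 200. Both were fewest in the libraries with doxorubicin, as the high set was. The summed epithelial markers in members, given above, were also lower in both libraries with doxorubicin. How much tissue attached to the ovary entered each pool is not given in the sources used here, and its part in the share of the high set was not tested.

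**Figure D3:**
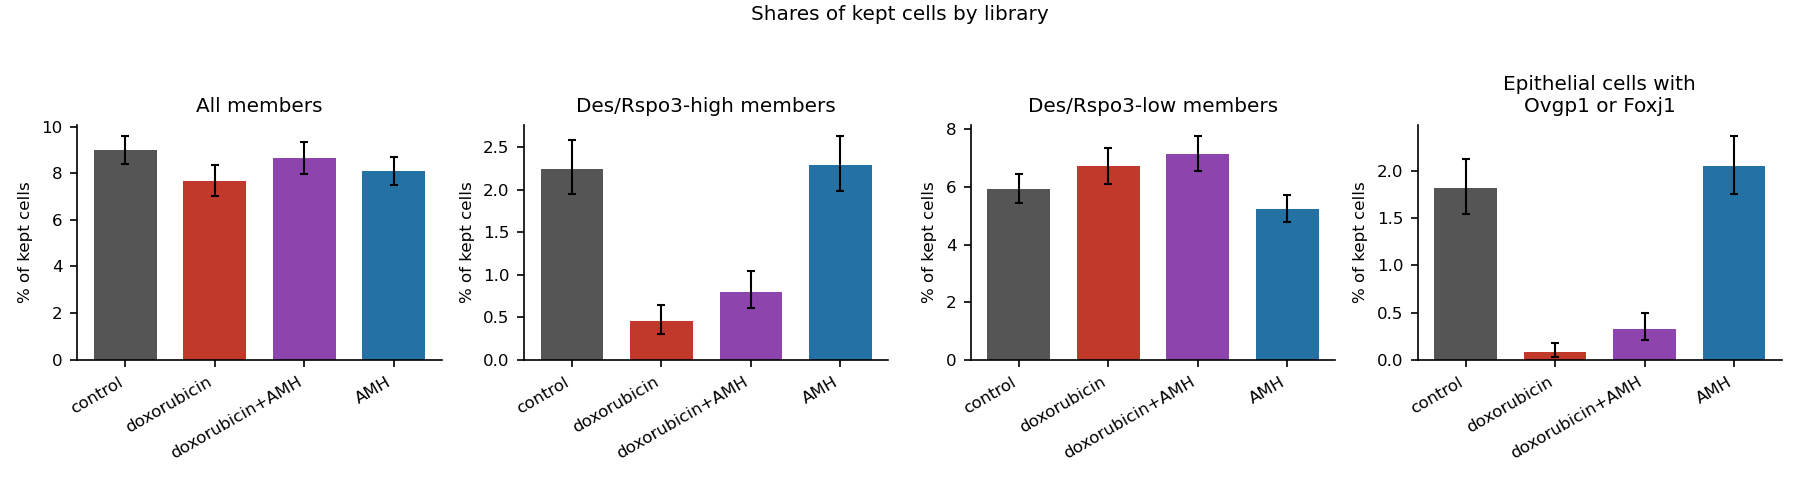
Percent of kept cells in each library that were members, Des/Rspo3-high members, Des/Rspo3-low members and epithelial cells with Ovgp1 or Foxj1 (as counted above), with 95% Clopper-Pearson intervals. The high set and these epithelial cells have short bars in both libraries with doxorubicin (0.453% and 0.802% for the high set), and the low set does not (6.71% and 7.15%).

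Doxorubicin was compared in 2 pairs that share no library, doxorubicin over control and doxorubicin+AMH over AMH. Ratios are of CPM over all members, with exact 95% intervals for counting error, and a gene is called when its ratio is past 2-fold. Over the 6636 genes whose mean over the libraries reached 20 CPM, 10 were called higher (0.151%) and 71 lower (1.07%) in doxorubicin over control, and 7 (0.105%) and 57 (0.859%) in doxorubicin+AMH over AMH. Most calls were toward lower levels in both pairs. Within the low set alone, of 6579 genes, 11 were higher (0.167%) and 11 lower (0.167%) in the first pair, and 6 (0.0912%) and 16 (0.243%) in the second, so the preponderance of lower calls in the first pair was not present there. Within the high set, of 6662 genes, 231 (3.47%) and 264 (3.96%) were called in the first pair and 123 (1.85%) and 170 (2.55%) in the second, with 29 and 56 cells on the doxorubicin side.

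The genes lowest in both pairs were those of the high set or of the oviduct. Pgr (chr9:8899833-8968611, plus strand) stood at 96.3, 17.7, 25.5 and 141 CPM over all members, a log2 ratio of -2.45 (-2.72 to -2.19) in doxorubicin over control and -2.47 (-2.67 to -2.27) in doxorubicin+AMH over AMH. Esr1 stood at 272, 69.5, 84.0 and 300 CPM, with log2 ratios of -1.97 and -1.84. Trdn stood at 48.1, 8.84, 5.91 and 57.8 CPM, with log2 ratios of -2.44 and -3.29. In all 3 genes both libraries with doxorubicin lay below both without it. Mybpc1 stood at 49.6, 3.43, 9.93 and 52.0 CPM (log2 -3.85 and -2.39), Gm20754 at 42.6, 9.37, 13.3 and 52.5 CPM (log2 -2.19 and -1.98), and Slc22a3, an organic cation transporter, at 36.4, 3.69, 4.44 and 39.0 CPM (log2 -3.30 and -3.13). Ovgp1, the oviduct glycoprotein, stood at 107, 3.03, 3.49 and 127 CPM, and a single cell held 68.3% of its UMIs in the AMH library and 42.2% in the control. Inside the low set Esr1 stood at 52.4, 47.1, 41.6 and 64.1 CPM, differences smaller than 2-fold. Pgr stood at 7.47, 5.81, 5.57 and 5.65 CPM there, but it was used for the division, so its low level follows from that. Inside the high set Pgr stood at 302, 108, 177 and 418 CPM and Esr1 at 790, 257, 435 and 761 CPM, again lower in both doxorubicin libraries. After thinning, 71.5%, 44.8%, 60.7% and 72.4% of high cells had an Esr1 UMI.

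Few genes were higher in both pairs by a large ratio. Pclaf, a PCNA-associated factor of replication, stood at 22.8, 40.2, 64.6 and 37.6 CPM, log2 ratios of 0.82 and 0.78. Myoc (myocilin, a secreted glycoprotein) stood at 28.8, 47.8, 39.1 and 15.5 CPM, log2 ratios of 0.73 and 1.34. The haemoglobin genes were also among the highest, but 1 cell held 5005 of the 5106 Hbb-bs UMIs of the doxorubicin library (98.0%), and without that cell Hbb-bs stood at 13.4 CPM there. Hba-a1 and Hba-a2 are near-identical copies whose counts are uncertain. Within the low set the interferon-induced GTPase Iigp1 stood at 21.96, 33.36, 40.03 and 19.04 CPM and the linker histone Hist1h1e at 36.75, 61.25, 43.01 and 27.43 CPM. Lower in the low set were Ecrg4, at 109.7, 36.19, 35.23 and 90.04 CPM, Prxl2a, at 56.22, 26.23, 25.78 and 52.12 CPM, and Aldh1a1 (a retinaldehyde dehydrogenase of theca and epithelium), at 188.0, 99.1, 49.74 and 145.2 CPM. Ecrg4 had log2 ratios of -1.60 and -1.35, and Aldh1a1 -0.92 and -1.55.

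Genes of the contractile apparatus were compared in the same pairs. Of 32 listed contractile and cytoskeletal genes, 28 passed the filter. Their median log2 ratio was -0.11 in doxorubicin over control (4 above 0 and 24 below) and 0.08 in doxorubicin+AMH over AMH (17 above and 11 below), so the 2 pairs differed in sign. Over all members 2 of the 28 genes, Synpo2 (synaptopodin 2) and Pgm5 (a phosphoglucomutase-like protein of adhesions), were past 2-fold, both lower and in both pairs. This was a larger share than the 1.07% and 0.859% of all genes that were lower. Synpo2 stood at 404, 166, 183 and 370 CPM over all members, log2 ratios of -1.28 and -1.02, and at 156, 144, 137 and 150 CPM within the low set. In the low set none of the 28 genes was past 2-fold in either pair, where 0.167% of all genes were in each direction in the first pair and 0.0912% (higher) and 0.243% (lower) in the second, so a count of 0 is near the background; the medians were -0.04 and 0.14. Within the high set the medians were -0.03 (13 above and 15 below) and 0.27 (25 and 3), with Fhl2 (a LIM protein) past 2-fold higher in both pairs, Synm (synemin) higher in the second and Synpo2 lower in the first. Over all genes of that set 3.47% and 1.85% were past 2-fold higher, and 3.96% lower in the first pair. Mylk (myosin light chain kinase) stood at 1823, 1757, 1644 and 1614 CPM, Myl9 at 1359, 1272, 1326 and 1388 CPM, and Tpm2 (tropomyosin 2) at 2050, 1882, 2061 and 1694 CPM. No 2 libraries differed by 2-fold in any of these 3 genes. Des was the exception among the rule's genes, with log2 ratios of -1.80 and -0.62, while Myh11 had -0.36 and -0.15.

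**Figure D4:**
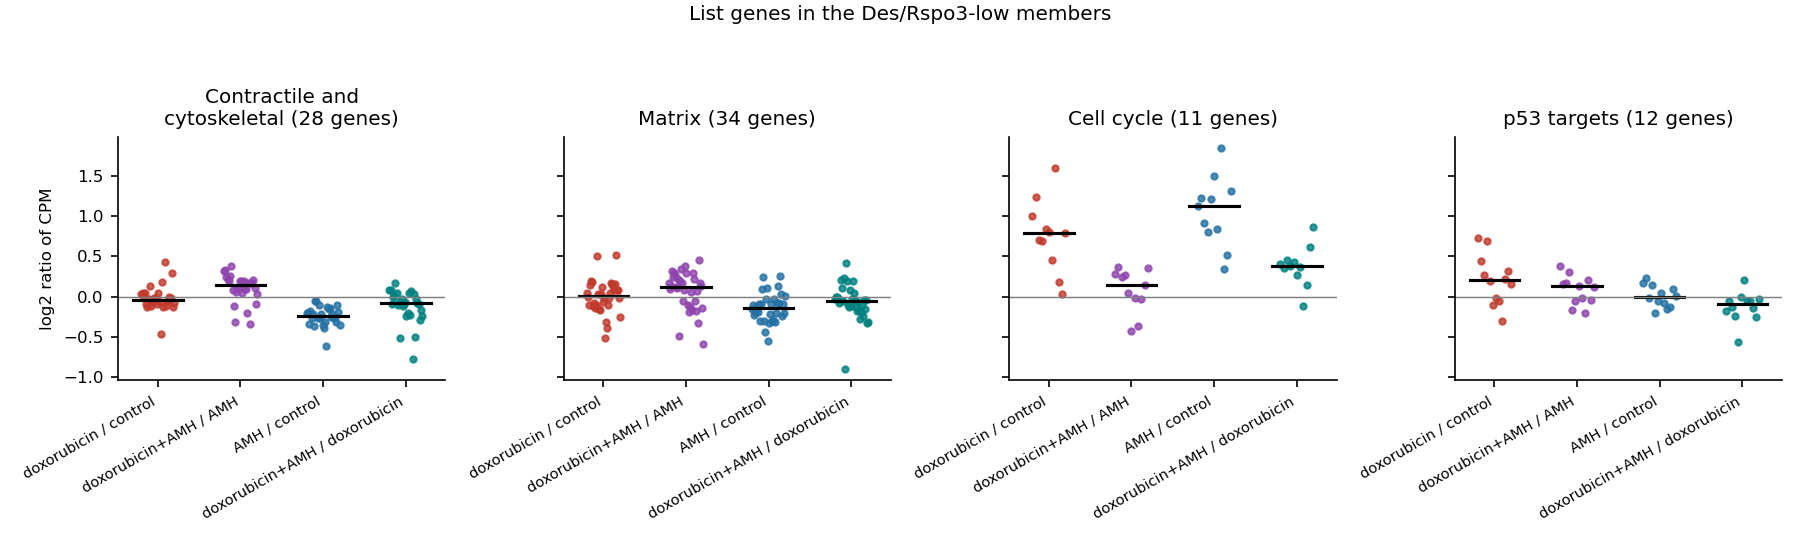
Log2 ratios of CPM for each gene of 4 lists (28 contractile, 34 matrix, 11 cell cycle and 12 p53 target genes) within Des/Rspo3-low members, with 1 panel per list; the 4 columns of a panel are the pairs of libraries, points are genes and bars the list medians. Contractile genes lie close to 0 (medians from -0.24 to 0.14), and the cell cycle genes lie above 0 in both columns that divide by the control library (medians 0.79 and 1.13).

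Among genes of calcium handling and of the response to contractants, 3 were past 2-fold lower in both doxorubicin pairs. Of 37 listed, 17 passed the filter, with median log2 ratios of -0.31 (3 above 0 and 14 below) and -0.16 (5 and 12). Ryr3 stood at 41.3, 14.9, 17.3 and 37.6 CPM, the L-type calcium channel gene Cacna1d at 88.8, 43.3, 28.0 and 74.4 CPM, and the calcium-activated chloride channel gene Ano1 at 53.6, 20.4, 21.5 and 55.1 CPM. These 3 were the genes past 2-fold, against 1.07% and 0.859% of all genes. Within the high set 22 genes passed, with medians of -0.23 (4 above and 18 below) and -0.18 (8 and 14); Ano1, Cacna1d and Ednra were past 2-fold lower in both pairs, Ednrb and Chrm3 (a muscarinic receptor) past 2-fold higher in both, and Ryr3, given above, differed in sign between them. Over all genes of the high set 3.47% and 1.85% were past 2-fold higher and 3.96% and 2.55% lower. Within the low set the 15 genes that passed had medians of -0.05 and -0.05. Oxtr, the oxytocin receptor, was low, at 18.9, 13.9, 11.5 and 11.0 CPM over all members, and Ednra, the endothelin receptor type A, stood at 184, 84.7, 71.5 and 148 CPM in the high set and 91.7, 95.8, 96.6 and 86.8 CPM in the low set. Ednra was thus lower with doxorubicin in the high set and nearly flat in the low set.

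Genes of relaxation (the nitric oxide, cyclic nucleotide and potassium channel arm) and regulators of the smooth muscle programme had no gene past 2-fold over all members in the doxorubicin pairs. Of all genes 0.151% were higher and 1.07% lower in the first pair, and 0.105% and 0.859% in the second. In lists of this size, finding none is near that background. The 12 relaxation genes that passed had medians of 0.00 (6 above and 6 below) and -0.03 (5 and 7), and the 13 regulators 0.08 (10 and 3) and -0.04 (5 and 8). Among regulators in the high set, Tcf21 and the homeobox gene Hoxd9 were past 2-fold higher in both pairs, where 3.47% and 1.85% of all genes were. The regulators' medians there were 0.26 (9 and 4) and 0.02 (7 and 6). Myocd (myocardin, the coactivator of serum response factor) stood at 227, 230, 266 and 159 CPM over all members and at 268, 245, 280 and 171 CPM in the low set, lowest in the AMH library. Of 40 matrix genes 36 passed, with medians of 0.05 (20 and 16) and 0.15 (23 and 13). Postn, at 114, 26.8, 31.8 and 115 CPM, and Ltbp1, which tethers latent TGF-β, were past 2-fold lower in both pairs, where 1.07% and 0.859% of all genes were. No matrix gene was past 2-fold in the low set. There 0.167% of all genes were in each direction in the first pair, and 0.0912% (higher) and 0.243% (lower) in the second. Finding none is thus near the background. In the high set 38 matrix genes passed, with medians of 0.36 (26 and 12) and 0.22 (25 and 13); 7 were past 2-fold higher in the first pair (Col1a1, Col1a2, Fbln5, Mfap5, Nid2, Tnc and Sparc) and 1 in the second (Tnc), where 3.47% and 1.85% of all genes were. Ltbp1 and Lama2 were lower in both, where 3.96% and 2.55% were. The 6 steroid receptor genes that passed had medians of -0.36 (1 and 5) and -0.36 (2 and 4), with Esr1 and Pgr past 2-fold lower in both pairs, again beside 1.07% and 0.859% of all genes, and the 4 that passed in the low set had -0.10 and -0.02. Their medians in the high set were -0.81 and 0.06, with Esr1, Pgr and Nr3c2 past 2-fold lower and Esr2 higher in the first pair and Pgr lower in the second. Over all genes the medians were 0.01 and -0.00.

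Among targets of p53, the factor activated by DNA damage, Cdkn1a, Ccng1 and Phlda3 were past 2-fold higher over all members in doxorubicin over control, where 0.151% of all genes were, and none was in doxorubicin+AMH over AMH, where 0.105% were. Cdkn1a (p21, a cell cycle inhibitor, chr17:29090976-29100727, plus strand) stood at 29.9, 122, 46.6 and 29.4 CPM over all members, log2 ratios of 2.02 (1.84 to 2.20) and 0.66 (0.45 to 0.87). In the high set it stood at 50.1, 636, 149 and 32.3 CPM, log2 ratios of 3.67 (3.41 to 3.93) and 2.21 (1.83 to 2.58). Among low cells it stood at 22.0, 36.5, 32.3 and 24.7 CPM, log2 ratios of 0.73 and 0.39. The ratio to control was thus past 2-fold in the high set and under it in the low set, and the difference between the sets was not tested. One cell held 17.6% of the Cdkn1a UMIs of the doxorubicin high set, which stood at 552 CPM without it. In all other kept cells Cdkn1a stood at 31.9, 143, 48.5 and 32.0 CPM, so the doxorubicin library was the highest and doxorubicin+AMH the next outside the members too.

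The share of cells with a Cdkn1a UMI differed most in the high set. After thinning, 8.81%, 55.2%, 30.4% and 6.12% of high cells had a Cdkn1a UMI (32.6%, 82.8%, 58.9% and 28.1% unthinned), and 4.97%, 6.54%, 3.01% and 3.39% of low cells (15.1%, 23.0%, 16.8% and 20.4% unthinned). Among low cells doxorubicin+AMH lay below AMH by this share and above it in CPM, so no order was read from that pair. Leukocytes, which express Cdkn1a themselves and are no measure of free RNA for it, gave 24.2%, 42.0%, 36.7% and 29.3%. Ccng1 (cyclin G1) stood at 18.1, 132, 27.9 and 16.6 CPM in the high set and 15.1, 22.7, 17.9 and 11.1 CPM in the low set. Phlda3 (an inhibitor of AKT) stood at 33.2, 184, 105 and 24.2 CPM in the high set and 33.8, 54.6, 46.2 and 37.4 CPM in the low set. For Phlda3 the doxorubicin library was highest in each set in CPM, and the doxorubicin+AMH library lay next. The thinned share of cells with a Ccng1 UMI was 3.63%, 24.1%, 0% and 4.59% in high cells and 2.58%, 3.04%, 4.42% and 2.49% in low cells, so for Ccng1 only the doxorubicin high set was read as higher, and no order was read among the other libraries or in the low set. Eda2r, a receptor of the TNF family, stood at 4.69, 16.8, 12.6 and 5.49 CPM in the low set.

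Of 30 listed p53 targets, 13 passed the filter over all members, with median log2 ratios of 0.40 (10 above 0 and 3 below) in doxorubicin over control and 0.19 (8 and 5) in doxorubicin+AMH over AMH. In the high set 16 passed, with medians of 1.30 (13 and 3) and 0.34 (11 and 5). There 11 were past 2-fold higher in the first pair (Cdkn1a, Ccng1, Bax, Eda2r, Phlda3, Trp53inp1, Zmat3, Aen, Polk, Ei24 and Ercc5), where 3.47% of all genes were, and 3 in the second (Cdkn1a, Eda2r and Phlda3), where 1.85% were. In the low set 12 passed, none past 2-fold (0.167% and 0.0912% of all genes were past it in this direction), with medians of 0.21 and 0.13. Eda2r was under the 20 CPM filter there and is not among these 12. Its low-set levels, given above, were more than 2-fold higher in both pairs. The comparison of doxorubicin+AMH over doxorubicin shares a library with each of these pairs. Its median in the high set was -1.06 (2 above and 14 below), with 10 genes past 2-fold lower against 3.93% of all genes, and in the low set -0.09. Mdm2, which targets p53 for degradation, was nearly even over all members, at 34.7, 45.8, 37.7 and 35.0 CPM. The 29 cells of the doxorubicin high set, whose pooled Ednrb and Tcf21 differ from those of the other high cells, carry every high-set value of the first pair. The 16 DNA repair genes that passed had medians of -0.00 and 0.05.

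**Figure D5:**
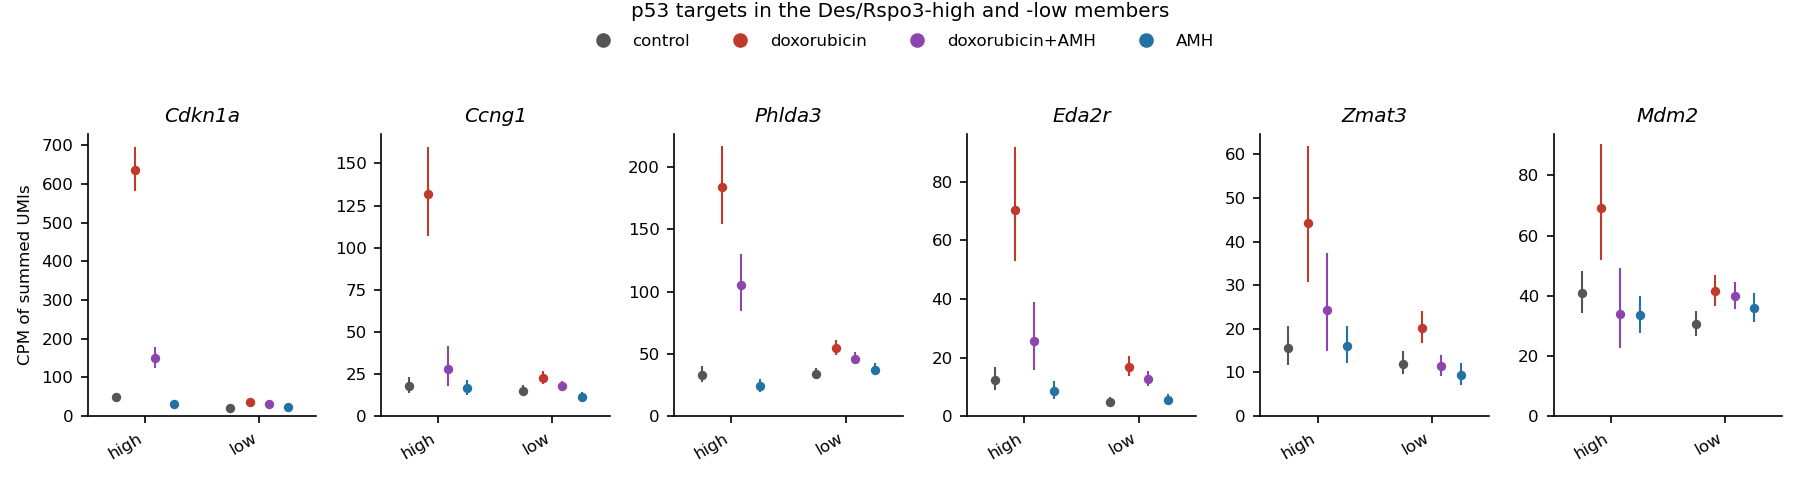
Levels of 6 p53 target genes in Des/Rspo3-high and Des/Rspo3-low members, in CPM on a linear axis with 95% exact Poisson intervals, 1 point per library. In the high set Cdkn1a reaches 636 CPM with doxorubicin and 149 CPM with doxorubicin+AMH, and in the low set it stays between 22.0 and 36.5 CPM.

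Genes of the cell cycle were mostly under the filter. In the low set 11 of 25 listed genes passed, with median log2 ratios of 0.79 in doxorubicin over control (11 above 0), 0.14 in doxorubicin+AMH over AMH (7 above and 4 below), 1.13 in AMH over control (11 above) and 0.38 in doxorubicin+AMH over doxorubicin (10 above and 1 below). The first and the third share the control library. Top2a (topoisomerase II α, a target of doxorubicin) stood at 32.2, 76.2, 97.7 and 75.5 CPM and Mki67 (the Ki-67 antigen) at 16.3, 32.5, 43.1 and 35.5 CPM. In both genes the control library was the lowest and doxorubicin+AMH the highest. In the high set only 3 genes passed, with a median of -2.14 in doxorubicin over control (0 above and 3 below) and 0.51 in doxorubicin+AMH over AMH (2 above and 1 below). Of 29 doxorubicin high cells 0 had 3 or more such UMIs, with a 95% upper limit of 11.9%, against 3.11% in the control. The share of cells with 3 or more UMIs of these genes after thinning was 3.38%, 4.91%, 7.23% and 4.75% in the low set and 12.5%, 14.5%, 19.1% and 15.7% in all other kept cells. In both sets of cells the control library was the lowest and doxorubicin+AMH the highest. The summed granulosa markers in members, given above, were likewise lowest in the control, and their part in these values was not tested.

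AMH was compared in AMH over control and in doxorubicin+AMH over doxorubicin, which share no library. Over 6636 genes, 11 were called higher (0.166%) and 12 lower (0.181%) in the first pair, and 5 (0.0753%) and 13 (0.196%) in the second. In the low set 19 (0.289%) and 13 (0.198%) were called in the first pair and 2 (0.0304%) and 17 (0.258%) in the second, and in the high set 23 (0.345%) and 57 (0.856%), then 173 (2.6%) and 262 (3.93%). With each gene's highest member left out, which was chosen after seeing the data, 11 were higher and 6 lower in the first pair over all members and 6 and 6 in the second. Amhr2, the receptor of AMH, stood at 13.9, 17.4, 14.9 and 19.7 CPM in members, 18.9, 7.23, 27.2 and 34.6 CPM in leukocytes and 68.2, 80.5, 64.6 and 72.0 CPM in all other kept cells. Its level in members lay within the range of the leukocytes, which should lack it. Of 17 BMP pathway genes 13 passed, with medians of -0.10 (3 above and 10 below) and -0.07 (4 and 9) and none past 2-fold over all members. The BMP-responsive inhibitors of differentiation stood lower with AMH in the low set: Id3 at 606, 598, 431 and 380 CPM, Id2 at 514, 493, 384 and 388 CPM, and Id1 at 148, 127, 96.4 and 90.0 CPM. For all 3 genes both libraries with AMH lay below both without it, by less than 2-fold. Over all members Id3 stood at 474, 562, 436 and 324 CPM, in the same arrangement. The high set, with 29 and 56 cells in the doxorubicin libraries, was arranged otherwise: Id3 stood at 190, 422, 384 and 148 CPM and Id2 at 175, 399, 324 and 136 CPM, both past 2-fold higher in both doxorubicin pairs (3.47% and 1.85% of all genes were). Id4 stood at 188, 122, 247 and 132 CPM there, past 2-fold higher in doxorubicin+AMH over doxorubicin (2.6% of all genes were), and the list's medians in the AMH pairs were -0.15 and -0.17.

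Several of the genes that differed most in both AMH pairs are known from granulosa or theca cells and were also present in leukocytes. Fst (follistatin, which binds activins) stood at 20.8, 28.2, 63.2 and 48.7 CPM in members, log2 ratios of 1.23 in AMH over control and 1.16 in doxorubicin+AMH over doxorubicin. It stood at 31.5, 56.8, 44.1 and 93.8 CPM in leukocytes and 289, 297, 525 and 406 CPM in all other kept cells. Hsd17b1, an estradiol-forming enzyme of granulosa cells, stood at 8.75, 24.1, 46.8 and 42.4 CPM, log2 ratios of 2.28 and 0.95. Cyp11a1, the side chain cleavage enzyme that begins steroid synthesis, stood at 196, 47.9, 18.2 and 28.3 CPM, log2 ratios of -2.79 and -1.40. Cyp11a1 stood at 190, 283, 28.7 and 36.8 CPM in leukocytes and 612, 537, 94.4 and 79.2 CPM in all other kept cells, and 1 member held 28.4% of its control UMIs. Cyp17a1, the androgen-forming enzyme of theca cells, stood at 88.0, 16.4, 9.29 and 9.69 CPM in members and 102, 151, 12.5 and 0.449 CPM in leukocytes. Leukocytes should lack Cyp11a1 and Cyp17a1, and the members' levels lay below theirs in 3 of 4 libraries for each gene. The part of free RNA in these ratios was not tested. Without members of over 2 times the median UMIs the log2 ratio of Fst in doxorubicin+AMH over doxorubicin was -0.0361, so its second ratio rests on those cells.

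Other genes higher in both AMH pairs included Gm11290, at 14.0, 14.9, 28.2 and 24.7 CPM, Hells (a chromatin helicase of dividing cells), at 13.8, 17.7, 29.0 and 22.6 CPM, Bex4, and Pclaf, with log2 ratios of 0.72 and 0.68. Bex4 stood at 73.7, 83.9, 135 and 151 CPM and was above in both AMH libraries. Lower were Prlr (the prolactin receptor), at 75.2, 39.4, 19.4 and 27.9 CPM, and Mgarp (a mitochondrial protein of steroid-forming cells), at 52.9, 29.2, 15.1 and 31.0 CPM. For Mgarp the doxorubicin and AMH libraries were alike. Without members of over 2 times the median UMIs the log2 ratio of Prlr in AMH over control was 0.0447, against -1.43 with them. The heat shock genes Hspa1a and Hspa1b stood at 131, 189, 156 and 280 CPM and at 95.3, 138, 93.9 and 231 CPM, highest in the AMH library, as Hspa1b was in all other kept cells, at 48.7, 57.0, 44.0 and 123 CPM. In doxorubicin+AMH over doxorubicin alone, the highest ratios were those of Pcp4, described below, Mybpc1 (log2 1.53), Fst and Hdac9 (a histone deacetylase), at 52.9, 9.90, 20.4 and 49.2 CPM, and the lowest were the haemoglobin genes.

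The contractile list had its lowest median in AMH over control. Over all members the list's median was -0.18 in AMH over control (2 above 0 and 26 below) and -0.03 in doxorubicin+AMH over doxorubicin (11 and 17), beside medians of all genes of -0.04 and -0.05. In the high set it was -0.22 (2 and 26) and 0.19 (20 and 8), opposite in sign. In the low set it was -0.24 (0 above and 28 below) and -0.08 (8 and 20), with no gene past 2-fold. Of all genes there, 0.289% were higher and 0.198% lower in the first pair, and 0.0304% and 0.258% in the second. Finding none is thus near the background. The medians of all genes in the low set were -0.06 and -0.06. Over all members, relaxation genes had medians of -0.23 (0 and 12) and -0.28 (1 and 11), regulators -0.09 (0 and 13) and -0.20 (1 and 12), and matrix genes -0.14 (5 and 31) and -0.14 (8 and 28). Gucy1a1, a subunit of the nitric oxide receptor, stood at 100, 88.3, 65.3 and 68.3 CPM in the low set, lower in both AMH libraries by under 2-fold.

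Over all members, Pcp4 (chr16:96467606-96525793, plus strand) was the only gene past 2-fold in opposite directions in the doxorubicin pairs. The high set on its own was not searched for such genes. It stood at 22.5, 3.43, 69.1 and 31.4 CPM over all members, a log2 ratio of -2.71 (-3.35 to -2.13) in doxorubicin over control and 1.14 (0.95 to 1.33) in doxorubicin+AMH over AMH. Of its 262, 26, 654 and 343 UMIs in members, 253, 15, 564 and 321 lay in the high set, which stood at 76.4, 19.5, 684 and 90.2 CPM, and the low set had at most 1.13 CPM. In the doxorubicin+AMH library 51.8% of high cells had a Pcp4 UMI (46.4% after thinning), against 13.5%, 10.3% and 27.6% in control, doxorubicin and AMH (7.77%, 6.90% and 14.3% after thinning). Leukocytes gave at most 0.971% unthinned and 0 after thinning. The most Pcp4-rich cell held 7.95% of the UMIs of all doxorubicin+AMH members, so the level did not rest on 1 cell there. In the doxorubicin library 12 of 26 UMIs were in 1 cell. Hoxa10, a homeobox gene that patterns the uterus, stood at 1.81, 1.30, 57.0 and 3.09 CPM in the high set and was seen in 41.1% of the doxorubicin+AMH high cells (19.6% after thinning) against 2.59%, 3.45% and 3.06% (0, 3.45% and 0.510% after thinning). Leukocytes gave at most 0.488%. Hoxa10 was chosen after its values were seen, and the 56 high cells of this library come from 1 pool.

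Scx and Tnc were also highest in the 29 high cells of the doxorubicin library. Scx (scleraxis, a tendon and ligament transcription factor) stood at 55.3, 302, 93.4 and 31.8 CPM in the high set, with 33.6% of the doxorubicin UMIs in 1 cell and 212 CPM without it. Tnc (tenascin C, a matrix protein of tendon and injury) stood at 28.1, 152, 54.6 and 11.0 CPM in the high set. For both the doxorubicin+AMH library came next. These genes were chosen after their values were seen.

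Some large values came from few cells. In the AMH library 1 member held 597 of 752 C3 UMIs (79.39%) and 1 held 577 of 1551 Crip1 UMIs (37.20%). C3 is complement component 3 and Crip1 a LIM domain protein. Members with over 2 times the median UMIs numbered 112, 74, 111 and 120.

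The remaining lists showed few genes past 2-fold. The 25 genes of dissociation stress that passed had medians of 0.10 and 0.03 in the doxorubicin pairs and -0.15 and -0.12 in the AMH pairs, with Hspa1a and Hspa1b past 2-fold higher in AMH over control (0.166% of all genes were) and Hspa1b past 2-fold lower in doxorubicin+AMH over AMH (0.859%), 2 comparisons that share the AMH library. The 15 genes of TGF-β signalling had medians of 0.21, 0.02, 0.02 and -0.12 in the order doxorubicin over control, doxorubicin+AMH over AMH, AMH over control and doxorubicin+AMH over doxorubicin. Ltbp1 was past 2-fold lower in the first 2 (1.07% and 0.859% of all genes were). Fst was past 2-fold higher in both AMH pairs (0.166% and 0.0753%). Ccn2 was past 2-fold lower in doxorubicin+AMH over doxorubicin (0.196%). Inhba (the activin βA subunit) was past 2-fold higher in doxorubicin over control (0.151% of all genes were) and AMH over control (0.166%), at 15.2, 42.9, 42.8 and 43.1 CPM in members and 10.5, 248, 31.6 and 145 CPM in leukocytes, whose part in the members' level was not tested. In the same order the 5 interferon genes had medians of 0.05, 0.20, -0.24 and 0.14, the 6 genes of doxorubicin transport and reduction 0.04, 0.01, -0.12 and -0.07, the 9 hedgehog genes -0.10, 0.08, -0.14 and 0.00, and the 12 genes of muscle disuse and oxidative stress -0.02, -0.10, -0.02 and -0.01. Of the hedgehog genes Cdon, a co-receptor, was past 2-fold lower in doxorubicin over control, where 1.07% of all genes were.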

How the data were processed

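Single-cell 3′ RNA libraries (10x Genomics v3.1 chemistry, per the labels' protocols) of 4 pools of 5 ovaries were analysed as the deposited matrices. They hold raw UMI counts per gene and cell as the authors deposited them, and the file headers name Cell Ranger 7.0.0. The submitters' processing notes name R 4.2.0, Seurat 4.1.0 and mm10; the matrices themselves are not normalized, and filters after cell calling are not given in the sources used here. Positions come from GENCODE vM21 (GRCm38, the same assembly as mm10), which holds 32158 of the 32285 gene IDs. Overlapping genes may share UMIs, and promoters come from RefSeq GRCm38.p6.

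Counts were summed per library over members and divided by their total (CPM). Ratios have no pseudocount, and a count under 3 was set to 3, so such a ratio is a bound. Genes entered when their mean over the libraries reached 20 CPM, and called means past 2-fold. Intervals are exact 95% intervals (Poisson for sums, conditional binomial for ratios, Clopper-Pearson for shares) and cover counting error only. Shares of cells with a UMI were compared after thinning to 2000 UMIs, which leaves out shallower cells. No doublet caller was run: cells with UMIs of 4 genes of other cell types were excluded by the rule, and leaving out members with high UMIs or with theca, epithelial or granulosa UMIs was tried. Free RNA was gauged in leukocytes.

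The members and gene lists were chosen with earlier results of these data known. Genes are named from these lists; as the 6 highest and 6 lowest over both doxorubicin pairs or both AMH pairs; as the 4 highest and 4 lowest in doxorubicin+AMH over doxorubicin; as the 20 most enriched in members; as the 12 most variable; or as past 2-fold in opposite directions in pairs that share no library. Genes that describe the division into high and low members were chosen after their values were seen. Scripts used Python 3.11.15, NumPy 2.4.6, SciPy 1.17.1 and pandas 2.3.3, with figures in matplotlib 3.10.9, and were tested on simulated data. Alternatives covered the filters, the rule, scaling, cell weighting, the pseudocount and subsets of members.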

Additional observations from a re-analysis of the deposited data

Results flagged for a closer look

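Pcp4 stood out because its ratio was past 2-fold in opposite directions in the pairs that differ by doxorubicin. Its log2 ratio over all members was -2.71 in doxorubicin over control and 1.14 in doxorubicin+AMH over AMH, and the difference between these was not tested. Of its UMIs in members, 15 of 26 in the doxorubicin library and 564 of 654 in the doxorubicin+AMH library lay in the Des/Rspo3-high members, which numbered 29 and 56. Within the low members the second ratio was -1.54, at levels of at most 1.13 CPM.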

How the results depend on the processing

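No paired analysis was possible because each group has 1 library. Counts of genes past 2-fold are given for doxorubicin over control, doxorubicin+AMH over AMH, AMH over control and doxorubicin+AMH over doxorubicin, in that order, and were 81, 64, 23 and 18. They were 304, 256, 245 and 274 without members that carry theca, epithelial or granulosa UMIs (which leaves 106, 64, 101 and 84 cells), 32, 26, 10 and 6 at a minimum of 50 CPM, and 1939, 2013, 1503 and 1290 without a filter. Within the high members they were 495, 293, 80 and 435, and within the low members 22 and 22 in the first 2. The last was 28 with at least 4 of the 5 genes, 31 without members of high UMIs and 43 with cells weighted equally. By direction, doxorubicin over control had 10 higher and 71 lower in the main count. It had 27 and 62 with cells weighted equally, and 20 and 74 without members of high UMIs. The division into high and low members, and leaving out each gene's highest cell, were chosen after seeing the data. Median-of-ratios scaling gave 52.17% higher calls in AMH over control (47.83% by totals) and 33.33% in the last pair (27.78%).

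The share of members was 6.67%, 5.04%, 6.19% and 5.89% with at least 4 of the 5 genes, 10.5%, 9.16%, 9.95% and 9.45% with 1 UMI of each excluded gene allowed, 6.40%, 3.94%, 5.40% and 5.28% after thinning, and 9.86% in the control with Rgs5 allowed. The high share of members was 33.9%, 12.4%, 17.2% and 35.3% with at least 2 of the 4 genes, 17.4%, 3.68%, 7.97% and 22.6% after thinning, 23.7%, 4.07%, 8.29% and 28.9% by Trdn, Gm20754 or Mybpc1, and 25.0%, 5.96%, 9.33% and 28.7% with Des left out of the rule.

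The log2 ratios listed here were past 2-fold over all members and changed sign, and the cause was not tested. In doxorubicin over control they were Cyp11a1 0.48 and Ovgp1 0.48 without members carrying other markers (7 against 7 and 5 against 5 UMIs, after a step that removes members by Cyp11a1 itself), Hbb-bs -0.50 in members without an Actg2 UMI (without Actg2), Hbb-bs -0.89 and Hsd17b1 -0.70 in high members, and Rspo3 0.49 and Slc22a3 1.56 in low members. In doxorubicin+AMH over AMH they were Gm20754 0.94, Rspo3 0.00144 and Ryr3 0.26 without Actg2, Myoc -0.64 and Ryr3 0.76 without other markers, Hbb-bt -0.17 with equal weights, Hdac9 0.40, Mgarp 0.0043, Rspo3 0.42 and Ryr3 0.58 in high members, and Pcp4 -1.54 in low members. In AMH over control they were Hbb-bs 0.0390 and Prlr 0.30 without other markers (5 against 5 UMIs for Prlr), and Prlr 0.0447 without high UMIs and 0.0453 in high members. In doxorubicin+AMH over doxorubicin they were Cyp11a1 1.5, Fst -0.94, Hbb-bs 0.84, Hdac9 -0.23 and Prlr 0.0648 without Actg2, Fst -0.0361 without high UMIs, Fst -0.84, Hba-a2 0.31, Hbb-bs 1.36 and Prlr 1.57 in high members, Hdac9 -0.19 in low members, and Prlr 0.93 without other markers. Of the other gene ratios 1495 moved by less than their counting interval and 929 by more. These include ratios under 2-fold over all members, whose changes of sign are not listed.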
